A study of Mus musculus with 3 samples.

Results

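The profile described here is that of CT26 cells, a mouse colon carcinoma line, that carry the miR-17~92 microRNA cluster at a medium (miR-17~92Med, here Med) or a high level (miR-17~92Hi, here Hi). It was read from 2 of the 3 deposited sample columns. The members were chosen by their labels, and the miR-Ctrl column, from cells with a control microRNA, was left out. Genes were described by the mean of the log2 levels of Med and Hi, and Med and Hi were not compared with each other.

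Both groups were grown in RPMI1640 with 10% fetal bovine serum and had been transfected with the PIG-miR-17~92 WT plasmid. Cells resistant to puromycin were sorted for GFP and plated at limiting dilution, so each group stems from single-cell clones. The design text names 3 subclones in a group, but 1 column stands for each group, and whether it is 1 clone, a pool or a mean was not stated. No unmodified CT26 culture was analysed here, so the profile is that of selected clones under an added microRNA cluster. There is no replicate column, and no value below carries an SD or a p-value.

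The table held 35556 probe sets, of which 21789 named 1 gene, and these gave 19938 genes. Med and Hi correlated at r = 0.992 across probe sets, and miR-Ctrl stood apart from both (r = 0.787 and 0.795). These are correlations across probe sets, which are not independent replicates. Of the genes, 10186 (51.1%) had exactly the same value in Med and Hi, so the closeness of the columns cannot be read as replicate error. Some genes also shared 1 value with each other, such as the low genes Epcam, Aim2, Nlrc4, Cxcl16 and Wnt5a at 5.1422 in both columns. Higher genes did so too, such as Hoxb1 and Wnt9b at 7.50077, and Sox9 and Mir598 at 9.11838, in both columns. Such a shared value may not be a separate reading of each gene. Among genes above the highest background gene, the median difference between the columns was 0.05 and 90% of genes differed by 0.47 or less, on the log2 scale.

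Epithelial cells of the colon are held together by E-cadherin, tight junctions and desmosomes, carry simple keratins in their skeleton, and take their identity from factors such as Cdx2 and Hnf4a. Mesenchymal cells instead build their skeleton on vimentin and deposit fibronectin, under factors such as the Zeb, Snai, Twist and Prrx families. Carcinoma lines kept in culture may express parts of both programs. A cell can only respond to a signal for which it has a receptor, and a ligand gene may be active in a cell that lacks the receptor.

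An array has no true zero, and probe sets differ in how strongly they bind, so levels were read against genes not known to act in such cells. The 1194 olfactory and vomeronasal receptor genes, here sensory receptor genes, had a median level of 4.51, a 95th percentile of 6.20 and a highest value of 8.85. A gene at or below 6.20, the lower limit, is called at background, and a gene above 8.85, the upper limit, lies above every sensory receptor gene. Of the 18744 other genes, 12667 (67.6%) exceeded the lower limit and 4369 (23.3%) the upper limit. The remaining 8298 (44.3%) lay between, and 6077 (32.4%) were at background. The upper limit was set by 1 gene, Olfr1174, at 8.85 in both columns, and the next, Olfr767, had a mean of 8.31.

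**Figure D1:**
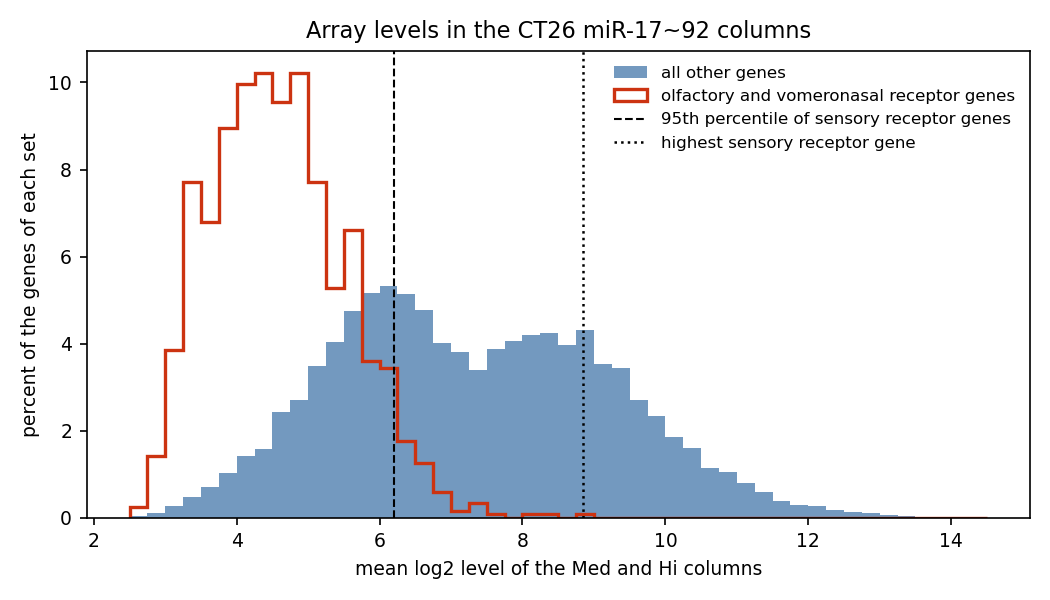
Histogram of the mean log2 level of Med and Hi (x axis, bins of 0.25) as the percent of each gene set (y axis), for the sensory receptor genes (red line) and all other genes (blue bars), with the 95th percentile and the highest value of the sensory receptor genes as dashed and dotted lines. The other genes formed a lower and an upper peak, with the fewest genes between them at levels from 7.25 to 7.50.

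The other genes fell into a lower and an upper group. The lower peak of the histogram held 997 genes at 6 to 6.25, the trough 638 genes at 7.25 to 7.50, and the upper peak 807 genes at 8.75 to 9. Genes between the limits therefore lie across the trough, and a level there does not show by itself that a gene was active. Markers of tissues that the line does not come from gave another gauge. Of 138 distinct markers of leukocytes, endothelium, nerve and glia, muscle, liver, germ cells and pluripotent cells, 89 were at background, 49 (35.5%) lay between the limits and 0 had a mean above the upper limit. Of all other genes, 32.4%, 44.3% and 23.3% did. Between the limits were 7 of 30 leukocyte markers (23.3%) and 13 of 20 muscle markers (65%). One of the latter was Tnnt3 (troponin T of fast muscle) at 7.68 in both columns. As 67.6% of all other genes exceeded the lower limit, it did not set muscle markers apart. The markers between the limits had promoters with a median GC content of 57.8% (30 with a promoter sequence), against 54.0% (69) for those at background. Their median ratio of observed to expected CpG was lower, 0.236 against 0.313, and the part of base composition in the levels was not tested.

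The promoters of 4 genes show the range of sequence behind these levels: the highest member of the mesenchymal structure list (Vim), the highest keratin (Krt18), and the lowest members of the intestinal differentiation list (Sis and Fabp1). They come from RefSeq's promoter table, cover 300 bases around each annotated start, are written 5′ to 3′ on the gene's strand, and have every CpG in capitals.
Vim promoter, GRCm38.p6 chr2:13574061-13574360, plus strand: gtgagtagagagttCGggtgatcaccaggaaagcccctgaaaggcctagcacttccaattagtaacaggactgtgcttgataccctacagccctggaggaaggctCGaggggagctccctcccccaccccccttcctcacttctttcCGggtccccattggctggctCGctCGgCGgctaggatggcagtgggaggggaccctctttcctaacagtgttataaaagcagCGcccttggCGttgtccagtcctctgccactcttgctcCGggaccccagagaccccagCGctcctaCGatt
Krt18 promoter, GRCm38.p6 chr15:102027966-102028265, plus strand: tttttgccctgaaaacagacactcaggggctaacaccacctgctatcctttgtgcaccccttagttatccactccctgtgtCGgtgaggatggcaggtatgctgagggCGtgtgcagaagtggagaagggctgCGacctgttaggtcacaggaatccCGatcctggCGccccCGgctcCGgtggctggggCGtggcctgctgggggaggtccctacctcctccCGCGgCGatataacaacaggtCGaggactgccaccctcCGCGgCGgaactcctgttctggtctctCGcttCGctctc
Sis promoter, GRCm38.p6 chr3:72967814-72968113, minus strand: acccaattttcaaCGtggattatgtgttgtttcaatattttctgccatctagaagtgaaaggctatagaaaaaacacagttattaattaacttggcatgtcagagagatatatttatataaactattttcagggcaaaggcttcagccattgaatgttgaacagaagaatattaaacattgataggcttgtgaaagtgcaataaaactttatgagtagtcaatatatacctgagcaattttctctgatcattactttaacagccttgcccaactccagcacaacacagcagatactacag
Fabp1 promoter, GRCm38.p6 chr6:71199629-71199928, plus strand: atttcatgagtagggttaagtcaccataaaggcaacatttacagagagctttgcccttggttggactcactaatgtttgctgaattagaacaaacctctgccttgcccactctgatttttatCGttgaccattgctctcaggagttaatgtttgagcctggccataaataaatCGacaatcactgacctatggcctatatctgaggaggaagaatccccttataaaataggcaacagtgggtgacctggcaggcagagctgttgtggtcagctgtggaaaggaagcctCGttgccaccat
Vim held 11 CpGs and Krt18 held 17, while Sis held 1 and Fabp1 held 3. The ratio of observed to expected CpG was 0.421 for Vim, 0.603 for Krt18, 0.115 for Sis and 0.198 for Fabp1. A TATA box (TATAAA, on either strand) was found in Vim, Sis and Fabp1, and a CCAAT box in Vim and Sis. In Krt18 none of the 9 motifs searched was found.

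The markers given for the line lay above the upper limit. Krt18, the type I keratin of simple epithelia, read 11.41 in Med and 12.28 in Hi. Fn1, the matrix protein fibronectin, was at 13.45 and 13.32. Ptgs2, the inducible prostaglandin synthase, was at 12.06 and 11.70. The hyaluronan receptor Cd44 was at 9.81 and 9.39, and B2m, which encodes the invariant subunit of class I MHC molecules, had a mean of 13.18. Each marker was thus high in both columns, and fibronectin and the class I light chain were among the 22 highest genes of the array.

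Vimentin and other cytoskeletal, secreted and housekeeping products headed the ranking. The first genes were Eef1a1 (translation elongation factor), the small nuclear RNA Rn7sk, ferritin heavy chain Fth1, beta-actin Actb and thioredoxin Txn1, with means from 14.34 down to 13.98. Vim ranked 7th with a mean of 13.76, the galectin Lgals1 ranked 9th with 13.67, and the lysosomal protease Ctsl ranked 11th with 13.59. Other non-ribosomal genes among the highest were the metallothionein Mt2 (mean 13.43), annexin Anxa5 (13.19), the secreted growth factor granulin Grn (13.16), cystatin Cst3 (13.07), the interferon-induced membrane protein Ifitm3 (13.06) and the cell cycle kinase Cdk4 (12.88). Ribosomal protein genes made up 21 of the 100 highest genes. Signal ranks depend on probe binding as well as on transcript number, so the order among these genes is that of array signal.

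Of the epithelial program, 1 keratin and 4 junction genes exceeded the upper limit, and the genes of E-cadherin, Epcam and occludin did not. Among 7 keratins of the epithelial list, 1 exceeded the upper limit (23.3% of all other genes did), and the list median was 6.39, against 7.16 over all genes outside the sensory receptors. Krt19 read 7.50 in Med and 7.87 in Hi. Krt8, the type II keratin with which Krt18 forms filaments, was at 7.28 and 7.32, between the limits. Krt20, a keratin of differentiated intestinal epithelium, was at 5.78 and 5.71, at background. Over the whole keratin family of 48 genes, 22 (45.8%) were above the lower limit and 1 (2.08%), Krt18, above the upper. Of all other genes, 67.6% and 23.3% were.

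Among 26 junction genes, 4 exceeded the upper limit (15.4%, against 23.3% of all other genes) and 10 were at background, with a median of 6.70. The tight junction scaffold Tjp1 read 10.16 in Med and 10.29 in Hi, the junction adhesion molecule F11r at 10.25 and 10.13, and the desmosomal plakin Dsp at 9.58 and 9.54. The polarity gene Pard3 was at 9.05 in both. Cdh1, which encodes E-cadherin, was at 6.26 in both columns, just above the lower limit. Epcam, the epithelial cell adhesion molecule, was at 5.14 in both, and occludin (Ocln) at 5.71 in both. The intestinal cadherin Cdh17 was at 5.06 and the desmosomal cadherin Dsg2 at 5.01, the same in both columns. Of the claudins, 1 of 23 (4.35%, against 23.3% of all other genes) exceeded the upper limit, Cldn9, at 9.66 and 9.25.

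Of 19 epithelial regulators, 1 exceeded the upper limit (5.26%, against 23.3% of all other genes). This was Klf5, a zinc finger factor of proliferating gut epithelium, at 10.50 in Med and 10.03 in Hi. The protease inhibitors Spint1 (8.51 and 8.85) and Spint2 (8.06 and 9.06) lay close to the upper limit. The splicing factor Esrp1 (5.41 and 5.54), Ehf (5.39 in both) and Grhl2 (5.60 and 5.65), factors that maintain epithelial character, were at background. Over the list, 11 of 19 regulators exceeded the lower limit (67.6% of all other genes did) and 8 were at background, with a median of 6.47. Between the limits lay, among others, Elf3 (7.22 and 8.03), Klf4 (7.61 in both), and the lineage factors Foxa1 and Foxa2 (means 7.04 and 6.72).

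Genes of intestinal identity were the lowest of the lineage lists from the line's own organ. Of 35 differentiation genes 0 exceeded the upper limit and 24 were at background (32.4% of all other genes were), with a median of 5.82. Vil1, the microvillus protein villin, was at 5.93 in both columns. The mucin Muc2 read 6.11 in Med and 6.16 in Hi, and the chloride exchanger of colon surface cells Slc26a3 at 4.25 in both. Fabp1, a fatty acid binding protein of enterocytes, was at 3.97 and 3.88, and Sis, sucrase-isomaltase, at 3.46 in both. Lgals4, a galectin of the gut, was higher than these, at 6.96 in both, between the limits. None of the defining intestinal markers Cdx1, Cdx2, Vil1, Lgals4 and Fabp1 exceeded the upper limit in either column, so the labelled organ of origin was not visible in them.

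Of 18 intestinal regulators measured, 10 were at background and 3 exceeded the upper limit (16.7%, against 23.3% of all other genes). These were Lrig1, a brake on EGF receptors that marks intestinal stem cells, at 11.12 in Med and 11.40 in Hi, the polycomb gene Bmi1 at 9.41 and 9.05, and the progenitor factor Sox9 at 9.12 in both. The Sox9 value was shared with Mir598 and may not be a separate reading of Sox9. Cdx1, a homeobox factor of the gut, was at 7.24 and 7.45, and its relative Cdx2 at 5.77 and 5.89, at background. Lgr5 (5.73 and 5.77), the R-spondin receptor of crypt stem cells, and Atoh1 (5.64 and 5.72), which directs secretory fate, were at background as well. Hnf4a, a nuclear receptor of gut and liver, was at 6.86 and 6.76, between the limits.

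**Figure D2:**
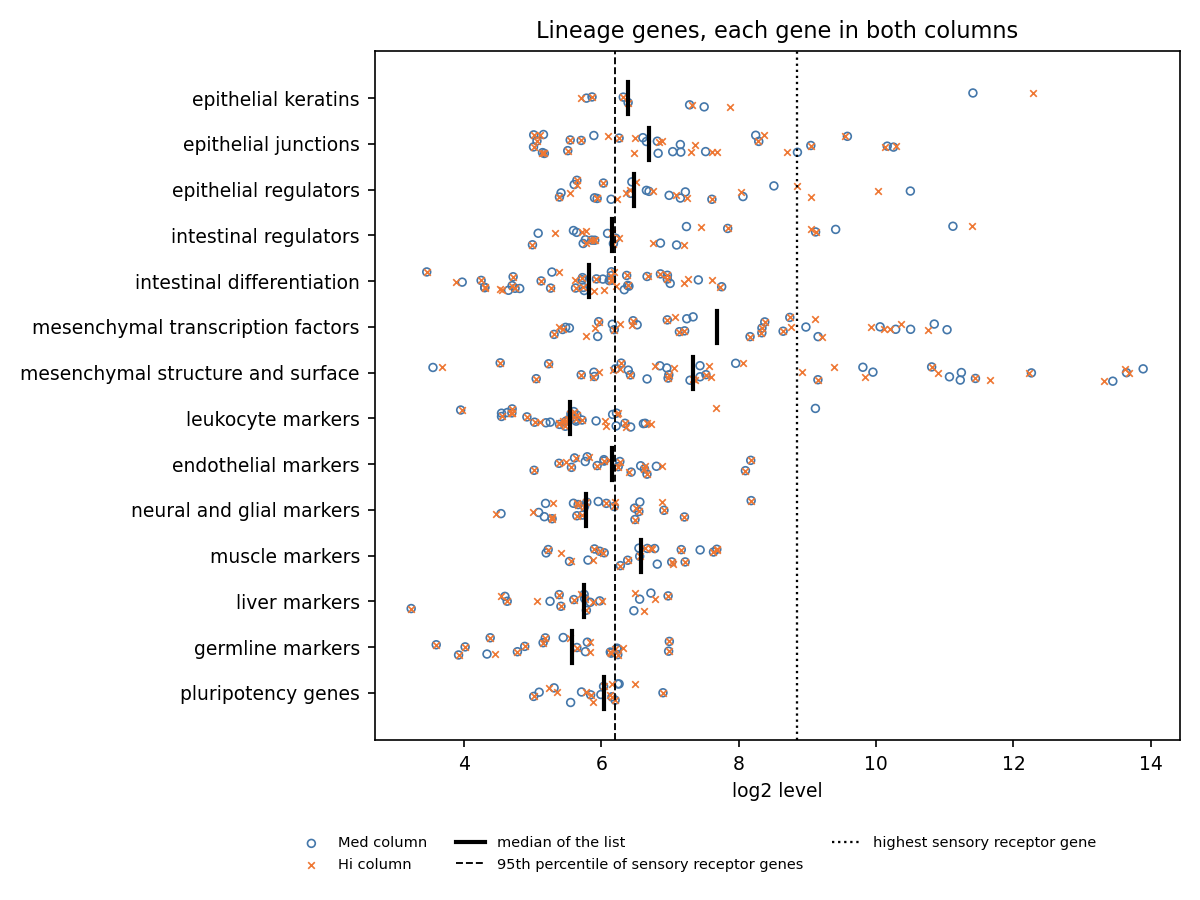
Log2 level (x axis) of every measured member of 14 lineage lists (rows) in Med (circles) and Hi (crosses), with the median of each list as a black bar, and with the lower and upper limits as dashed and dotted lines. Mesenchymal lists reach 13.89 (Vim in Med), the keratin list has Krt18 alone above the upper limit, and of the 7 lists from other tissues only Cd68 passes it, in Med (9.12) and not in Hi (7.67).

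The mesenchymal lists had the highest medians of the lineage lists. All lists were written with earlier results of these data known, so this order is a description and no test of lineage. Of 28 mesenchymal transcription factors 7 exceeded the upper limit (25%, against 23.3% of all other genes), with a median of 7.69. Of 33 structure and surface genes 12 did (36.4%), with a median of 7.33, where the median of all other genes was 7.16. Prrx1, a homeobox factor of limb and connective tissue mesenchyme, read 11.03 in Med and 10.75 in Hi. The Hippo pathway coactivators Wwtr1 (10.85 and 10.37) and Yap1 (10.50 and 10.20) and their DNA-binding partner Tead1 (10.29 and 10.11) were also high, as was Runx1 (10.06 and 9.93). These genes and Tead2 are counted among the 7 factors above the upper limit, and Zeb2 is the other, by its mean. Of the Zeb, Snai, Twist and Prrx families, Prrx1 alone exceeded the limit in both columns. Of the factors that repress E-cadherin, Zeb2 was at 8.98 and 8.77, Snai1 at 8.65 in both, Twist1 at 8.34 in both and Snai2 at 7.33 and 7.07. Zeb1 was at 5.96 in both, at background. Zeb2 is thus the member of its pair that lay near the upper limit.

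Vim itself read 13.89 in Med and 13.63 in Hi. Sparc, a secreted matrix-binding protein, was at 11.45 in both columns, S100a4, a calcium-binding protein of motile cells, at 11.22 and 11.66, and the integrin chain Itgb1 at 11.24 and 10.90. Cdh2, N-cadherin, was at 9.95 and 8.92, above the upper limit in each, whereas E-cadherin was near the lower limit. Some markers of fibroblasts were at background: the proteoglycans Dcn (5.71 in both) and Lum (3.55 and 3.67), the matrix protein Postn (4.53 in both) and the protease Fap (5.23 in both). Others lay between the limits, such as the collagen chain Col1a1 (7.44 and 7.57) and Thy1 (6.85 and 6.79). The contractile genes Acta2 (6.42 in both), Tagln (5.90 and 5.88) and Cnn1 (5.89 and 5.97) were at or near the lower limit. Of 44 collagen chain genes 38 were above the lower limit (86.4%, against 67.6% of all other genes). Above the upper limit was 1 (2.27%, against 23.3%), Col8a1, a short-chain collagen, at 10.36 and 10.46. Caldesmon (Cald1), an actin-binding protein of smooth muscle and other cells, was higher than these contractile genes, at 10.81 in both.

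Other tissues gave no marker above the upper limit in both columns. Ptprc, the pan-leukocyte phosphatase, was at 5.63 in both, the B cell gene Ms4a1 at 4.70 in both and the integrin Itgam at 5.47 in both. Pecam1 was at 6.24 in both and Cdh5 at 6.43 and 6.40, and the highest endothelial markers were Flt1 at 8.17 and Egfl7 at 8.10, the same in both. Snap25, of nerve terminals, was at 5.75 in both, and albumin (Alb) at 5.41 in both. Ncam1 was the highest neural marker at 8.18 in both columns. Of the germline list the highest was Prm1 at 6.99, and of the pluripotency list Lin28a at 6.90, each the same in both columns.

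Several gene families had few members above the lower limit. Of 70 cytochrome P450 genes of the drug and steroid classes 12 were above the lower limit and 1 above the upper, Cyp4f13, at 9.48 in both. Of 11 UDP-glucuronosyltransferases, 0 were above the lower limit. Of 23 NK lectin receptor genes 1 was above it, of 11 voltage-gated sodium channels 1, of 16 GABA receptor subunits 2, and of 34 protocadherins 4, where 67.6% of all other genes were. At the other end, 77 of 77 mitochondrial ribosomal protein genes, 43 of 43 complex I genes and 7 of 7 chaperonin subunits were above the lower limit, and the chaperonin subunits were all above the upper one too.

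Hox genes record the position of a cell along the body axis. Of 37 measured, 17 exceeded the lower limit (45.9%, against 67.6% of all other genes) and 3 the upper (8.11%, against 23.3%): Hoxa7 (9.32 in Med and 9.33 in Hi), Hoxa5 (9.06 and 9.12) and Hoxa6 (8.89 in both). These are adjacent genes of the Hoxa cluster, and Hoxa4 followed at 8.04 and 8.13. The highest member of another cluster was Hoxb1 at 7.50 in both, a value shared with Wnt9b that may not be a separate reading. Annexins and S100 proteins, calcium-dependent binders of membranes and partner proteins, had 7 of 12 (58.3%) and 7 of 14 (50%) members above the upper limit, where 23.3% of all other genes were.

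Receptors were next described by what they bind. Over 8 receptor lists with 281 distinct genes, 49 (17.4%) exceeded the upper limit, and over 9 ligand lists with 256 genes, 29 (11.3%) did, where 23.3% of all other genes did. The median was 6.63 for receptors and 6.44 for ligands. Most genes of either kind were thus not above the highest sensory receptor gene.

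Among 56 receptor tyrosine kinases 11 exceeded the upper limit (19.6%, against 23.3% of all other genes) and 23 were at background. Axl, a receptor for the vitamin K-dependent ligand Gas6, was the highest, at 11.90 in Med and 11.74 in Hi. It was followed by Ddr2, a collagen receptor (11.27 and 10.64), Fgfr1 (11.36 and 10.20), the ephrin-A receptor Epha2 (10.54 and 10.57) and the Wnt coreceptor Ryk (10.63 and 10.35). Pdgfra was at 9.79 and 10.27, whereas Pdgfrb was at 6.13 and 6.11, at background. The hepatocyte growth factor receptor Met was at 9.66 and 9.56, and Igf1r at 9.69 in both. Of the EGF receptor family, Erbb2 was at 8.88 in both columns, Egfr at 8.23 and 9.48, Erbb3 at 8.02 and 7.45, and Erbb4 at 5.41 and 5.46. Fgfr2, an epithelial FGF receptor, was at 4.79 and 4.93, and Epha3 at 4.98 in both. The kinase receptors above the upper limit thus included collagen, PDGF-A, FGF and Gas6 receptors. The others were Epha2, Ryk, Insr, Igf1r, Met, Erbb2 and, by its mean, Egfr.

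**Figure D3:**
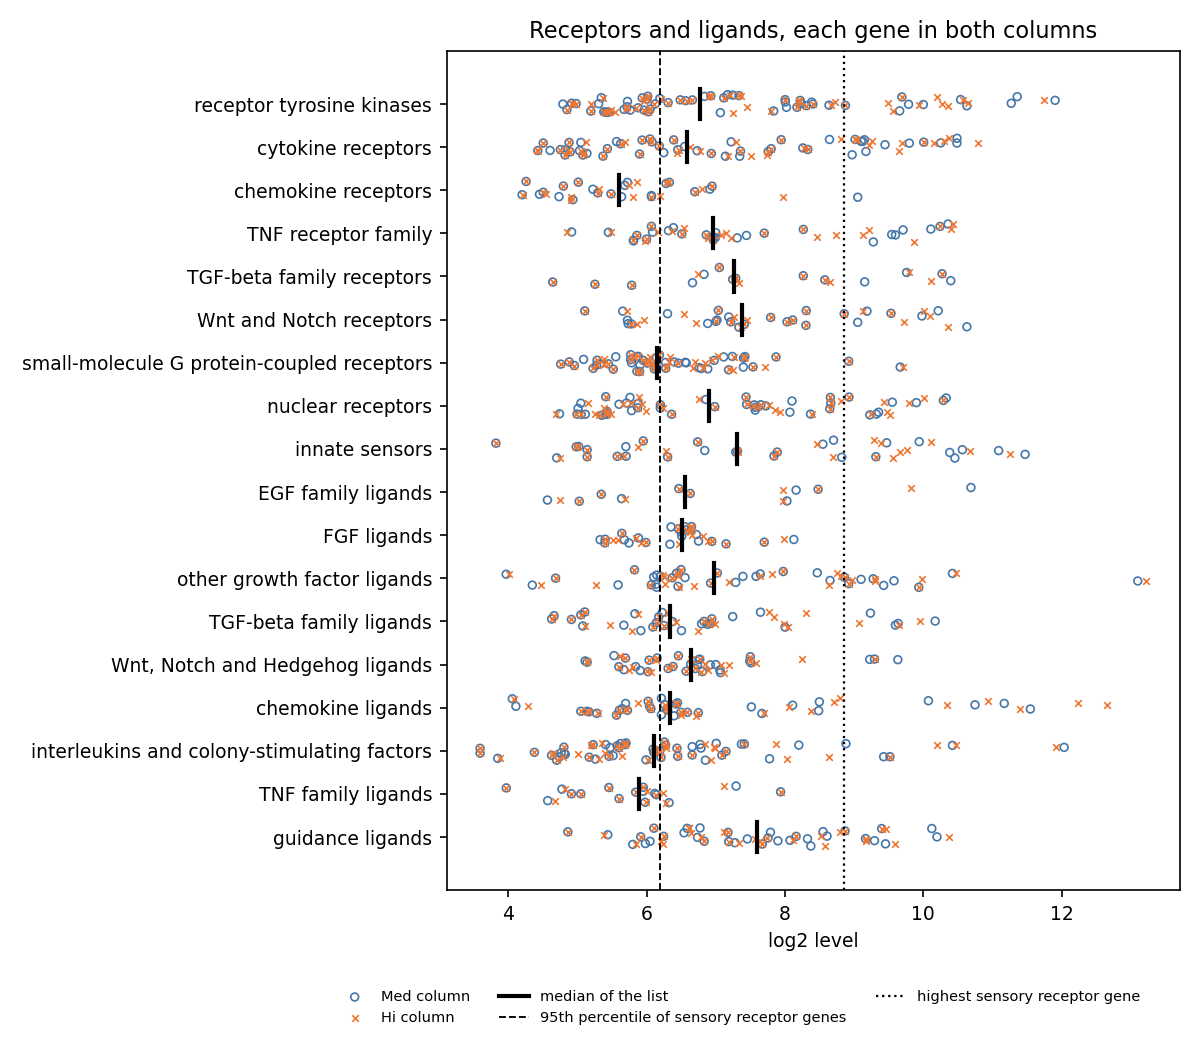
Log2 level (x axis) of every measured member of 18 receptor, sensor and ligand lists (rows) in Med (circles) and Hi (crosses), with list medians as black bars and the lower and upper limits as dashed and dotted lines. Axl is the highest receptor tyrosine kinase (11.90 and 11.74), and chemokine ligands reach 12.65 (Cxcl5 in Hi) whereas chemokine receptors stop at 9.05 (Cxcr3 in Med).

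Of 49 cytokine receptors measured, 11 exceeded the upper limit (22.4%, against 23.3% of all other genes) and 21 were at background. Il6st, the shared signal chain gp130, read 10.49 in Med and 10.79 in Hi, the growth hormone receptor Ghr at 10.49 and 10.37, and Il17rc at 10.01 in both. The interferon receptor chains Ifngr2 (9.80 and 10.15), Ifnar2 (9.10 and 10.30) and Ifnar1 (9.13 and 9.25) were above the upper limit, and Ifngr1, at 8.33 in both, was below it. Il13ra1 was at 10.25 and 9.70, and its decoy relative Il13ra2 at 4.43 in both. The leukocyte-type chains Il7r (4.82 in both), Il2ra (4.88 in both) and Il5ra (4.76 in both) were at background. The LIF receptor chain Lifr was at 5.05 and 5.13, at background beside its high partner Il6st.

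Of 27 TNF receptor family genes 7 exceeded the upper limit (25.9%, against 23.3% of all other genes). The death receptor Tnfrsf10b, which binds TRAIL, read 10.36 in Med and 10.43 in Hi, and the TNF receptor Tnfrsf1a at 10.24 and 10.25. The costimulatory receptor Tnfrsf9 (4-1BB), best known on T cells, was at 10.11 and 10.40. Its ligand Tnfsf9 was at 7.29 and 7.12. The decoy receptors Tnfrsf22 (9.54 and 9.14) and Tnfrsf23 (9.60 and 8.73) were high as well, and Fas was at 6.96 and 8.47. Of 16 TNF family ligands 0 exceeded the upper limit and 13 were at background, where 32.4% of all other genes were.

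Of 14 TGF-beta family receptors 4 exceeded the upper limit (28.6%, against 23.3% of all other genes): the coreceptor Tgfbr3 (10.27 in both), Bmpr2 (10.40 and 10.11), Bmpr1a (9.76 and 9.80) and Tgfbr2 (9.15 and 8.66). Tgfbr1, the partner of Tgfbr2 in signalling, was at 7.05 in both. Among 26 Wnt, Notch and Hedgehog receptors 7 did (26.9%), including Notch2 (10.22 and 10.01), the Wnt coreceptor Lrp5 (9.98 and 10.09), the Hedgehog transducer Smo (9.53 in both) and Fzd6 (9.05 and 9.72). Of 44 nuclear receptors 8 did (18.2%), among them the clock repressor Nr1d1 (10.29 in both), the lipid sensor Ppard (10.33 and 10.01) and the glucocorticoid receptor Nr3c1 (9.55 and 9.43). Of 46 G protein-coupled receptors for small ligands and proteases 2 did (4.35%), the thrombin receptor F2r (9.67 and 9.71) and the sphingosine phosphate receptor S1pr2 (8.92 in both). The prostaglandin E2 receptors Ptger2 (5.45 in both) and Ptger3 (5.33 and 5.39) were at background beside the high Ptgs2, and Ptger4, at 5.77 in both, was at background too. Ptger1, the other PGE2 receptor, was at 6.79 and 6.82, between the limits.

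Innate sensors of cytosolic RNA were the highest of their list. Of 28 measured, 10 exceeded the upper limit (35.7%, against 23.3% of all other genes). The RNA helicases Ddx58 (RIG-I, 11.47 in Med and 11.26 in Hi), Dhx58 (11.09 and 10.68) and Ifih1 (MDA5, 10.56 and 9.76) led, followed by their adaptor Mavs (9.94 and 10.11). Sting1, the adaptor of cytosolic DNA sensing, was at 10.46 and 9.56, while Cgas, the DNA sensor upstream of it, was at 6.84 and 6.28, between the limits. Of the Toll-like receptors, Tlr4 was at 8.82 and 9.32 and Tlr2 at 8.70 and 9.28. The endosomal receptors Tlr7 (3.82 in both) and Tlr8 (4.70 and 4.74) and the inflammasome sensors Aim2 and Nlrc4 (each 5.14 in both) were at background. The type I interferon gene Ifnb1 was at 4.81 in both.

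Among ligands, chemokines reached the highest signals after Grn and Mif. Of 34 chemokine genes 5 exceeded the upper limit, a lower share than the 23.3% of all other genes. The neutrophil attractants Cxcl1 (11.17 in Med and 12.23 in Hi) and Cxcl5 (10.75 and 12.65) led, with Ccl5, an attractant of T cells, at 11.55 and 11.40 and the monocyte attractant Ccl2 at 10.07 and 10.93. Cx3cl1 was at 8.11 and 10.34, above the upper limit in Hi and by the mean. Cxcl12, the homing chemokine made by stroma, was at 5.72 in both columns and Cxcl16 at 5.14 in both. Of 22 chemokine receptors 0 had a mean above the upper limit, 16 were at background (32.4% of all other genes were), and the highest was Cxcr3 at 9.05 and 7.98. Ccr2 (4.20 and 4.22) and Cxcr2 (4.26 in both), the receptors of Ccl2 and of Cxcl1 and Cxcl5, were the lowest of the list. The receptors paired with Cxcl1, Cxcl5, Ccl2 and Ccl5 were at background, but 14 of the 34 ligands were at background too, with a list median of 6.33.

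Among interleukins and colony-stimulating factors 5 of 49 exceeded the upper limit (10.2%, against 23.3% of all other genes): Mif (12.04 and 11.92), the macrophage growth factors Csf1 (10.42 and 10.48) and Il34 (9.43 and 8.64), the gp130 ligand Clcf1 (9.52 in both) and the granulocyte factor Csf3 (8.20 and 10.20). Il6 and Il3 were the lowest, with the same value of 3.59 in both columns, and Il10 was at 4.70 in both. Csf2 was at 5.62 and 5.69, at background. Il33 was at 8.88 and 5.69, so that its mean of 7.29 describes neither column. Wnt1 had the same limit to its mean, with 9.63 and 6.14.

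Of 10 EGF family ligands 1 exceeded the upper limit, Hbegf, at 10.69 in Med and 9.82 in Hi, and of 22 FGF genes 0 did. Fgf8 was the highest FGF gene, at 8.13 and 7.98. Other growth factor genes had 9 of 34 above it (26.5%, against 23.3% of all other genes), among them Vegfb (9.93 in both), Kitl (9.58 and 9.30) and Pdgfa (9.28 and 9.30). Angpt1 (3.97 and 4.02), Pdgfd (4.35 and 4.48) and Hgf (4.69 in both) were the lowest. Of 28 TGF-beta family ligands 3 exceeded the upper limit (10.7%), Bmp1 (a procollagen protease, 10.17 and 9.96), Tgfb1 (9.60 and 9.66) and Tgfb3 (9.64 and 9.07). Of 31 Wnt, Notch and Hedgehog ligands 1 did by its mean, Wnt10a (9.23 and 9.30). Guidance ligands had 7 of 34 (20.6%), led by Sema3e (10.20 and 10.38), Sema4b (10.12 and 9.46) and Efna1 (9.45 and 9.59).

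Ligand and receptor genes were then set side by side in 73 pairs, written after the levels had been seen. In 6 pairs both genes exceeded the upper limit: Hbegf with Egfr, Pdgfa with Pdgfra, Efna1 with Epha2, Tgfb1 and Tgfb3 with Tgfbr2, and Wnt10a with Fzd6. Egfr (mean 8.86) and Tgfbr2 (mean 8.91) were close to the limit of 8.85 and exceeded it in 1 column each, so 3 of the 6 pairs rest on a mean. In 15 pairs the ligand alone exceeded it, and in 10 of these the receptor was at background. These were the pairs of Cxcl1 and Cxcl5 with Cxcr2, Ccl2 with Ccr2, Ccl5 with Ccr1, Csf1 and Il34 with Csf1r, Kitl with Kit, Gdnf with Ret, Vegfa with Kdr and Csf3 with Csf3r. Il34 was below the upper limit in Hi (8.64) and Csf3 in Med (8.20), so their pairs rest on a mean too. So does the pair of Cx3cl1 (8.11 in Med), another of the 15. Csf1r was at 5.72 in both columns, Kit at 6.05, Ret at 6.01 and Csf3r at 5.62, each the same in both.

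In 22 pairs the receptor alone exceeded the upper limit, and in 11 of these the ligand was at background. Among them were Hgf (mean 4.69) with Met (9.61), Igf1 (5.83) with Igf1r (9.69), Fgf2 (5.99) with Fgfr1 (10.78), Il6 (3.59) with Il6st (10.64), Ifnb1 (4.81) with Ifnar1 (9.19) and Tnfsf10 (5.84) with Tnfrsf10b (10.39). Gas6 was also low relative to Axl, though above the lower limit. RNA was measured, and protein and secretion were not.

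**Figure D4:**
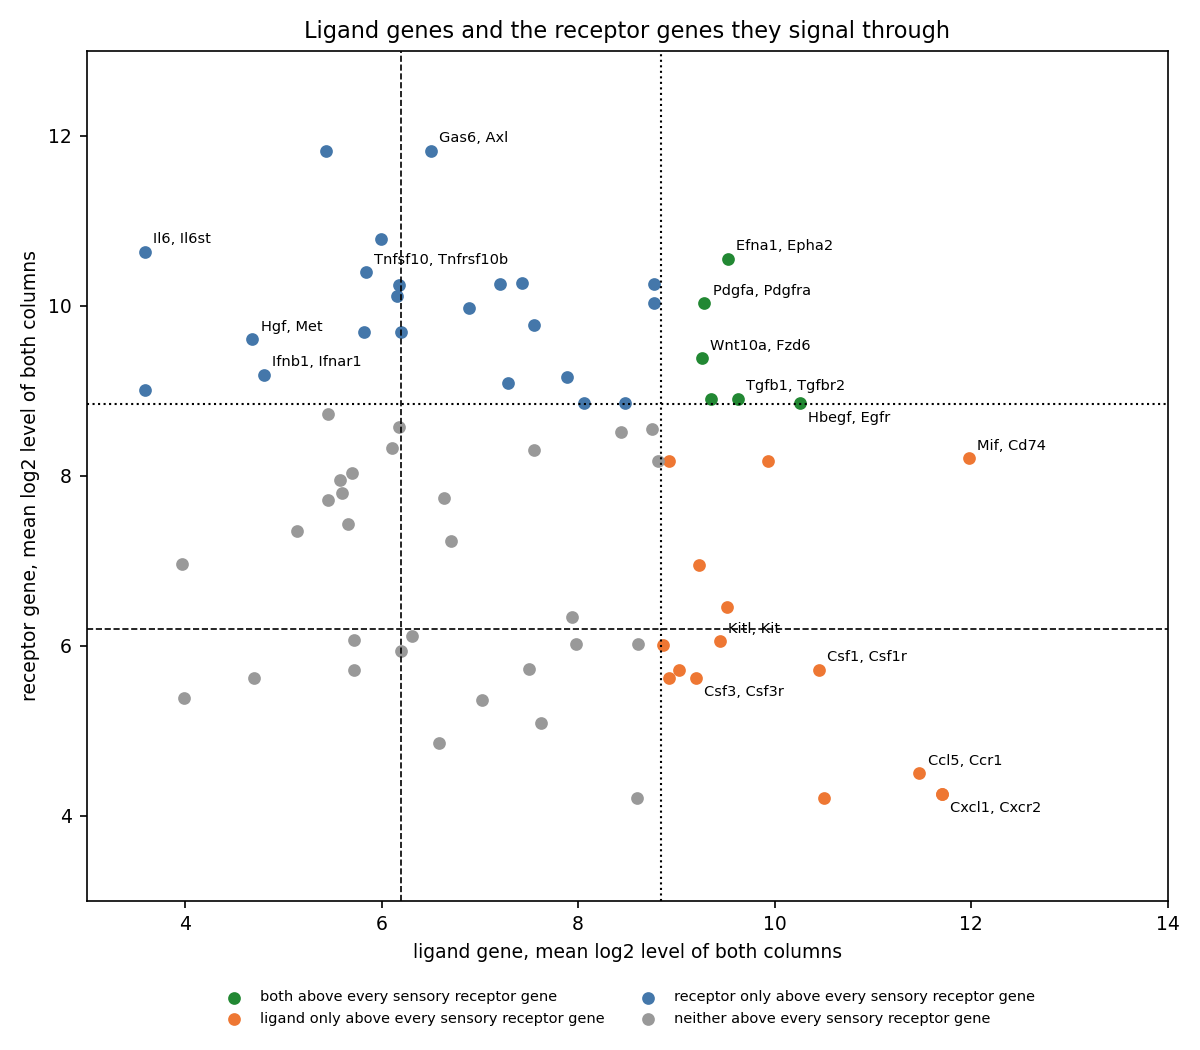
Mean log2 level of a ligand gene (x axis) against that of a receptor gene (y axis) for 73 pairs, coloured by which gene exceeded the upper limit (dotted lines, with the lower limit dashed). The 6 green pairs have both genes above it, and the pairs of Cxcl1, Cxcl5, Ccl2 and Ccl5 lie at the lower right, with Cxcl1 at 11.70 and Cxcr2 at 4.26.

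Surface genes that immune cells read were uneven. Of 29 checkpoint and costimulatory genes 5 exceeded the upper limit (17.2%, against 23.3% of all other genes): the galectins Lgals3 (12.45 in Med and 12.59 in Hi) and Lgals9 (11.52 and 11.71), Cd47, which inhibits phagocytosis (10.78 and 10.93), the ectonucleotidase Nt5e (11.07 and 9.83) and the poliovirus receptor Pvr (10.48 and 9.65). Cd274, which encodes PD-L1, was at 8.09 and 7.22, between the limits. The costimulators Cd80 (mean 5.04) and Cd86 (4.74 in both) and Pdcd1lg2 (PD-L2, 4.81 in both) were at background, and the complement regulator Cd55 (3.53 in both) was the lowest. Of 9 MHC class II genes 6 exceeded the lower limit (66.7%, against 67.6% of all other genes) and 0 the upper limit, with H2-Aa at 4.55 and 4.44, the master regulator Ciita at 6.36 in both and the invariant chain Cd74 highest at 8.28 and 8.13. H2-Eb1, a class II beta chain, had a mean of 7.09.

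Promoter sequence differed along the ranking, a feature that the choice of genes did not use. A promoter was found for 14601 genes outside the sensory receptors, split by level into 5 equal bins, and for 1013 sensory receptor genes. The median ratio of observed to expected CpG was 0.28 in the lowest bin, 0.42 in the second, 0.70 in the third, 0.80 in the fourth and 0.82 in the highest, and 0.11 for sensory receptor genes. A GC box (GGGCGG, a site of Sp and Klf factors) was present in 25.2% of promoters of the lowest bin and 71.2% of the highest (95% Wilson interval 69.5% to 72.8%, counting error only), and in 49.9% of all promoters. An ETS site (CCGGAAGT) was present in 1.4% and 9.97% (5.58% of all), an NRF1 site (GCGCATGC) in 1.81% and 6.51% (3.9%), a YY1 site (AAGATGGC) in 1.57% and 6.61% (3.43%), a cyclic AMP response element (TGACGTCA) in 1.03% and 3.36% (2.49%) and an E box (CACGTG) in 5.75% and 12.4% (8.38%).

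The TATA box went the other way, with 19.3% of promoters in the lowest bin, 6.37% in the highest and 12.1% of all, and 40.5% for sensory receptor genes. The AP-1 site (TGACTCA) was present in 6.95% and 3.53% (4.53% of all), and the CCAAT box in 39.7% and 37.5% (38.2% of all). Vim, whose promoter is printed above, is a high gene with a TATA box and with a CpG ratio near the median of the second lowest bin. Median GC content of the promoters rose with level too, from 49.3% to 62.3%, and most motifs that increased hold CpGs, so motif and base composition cannot be told apart here. All motifs were searched on both strands, overlaps between motifs were not removed, and a match is a description of letters.

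**Figure D5:**
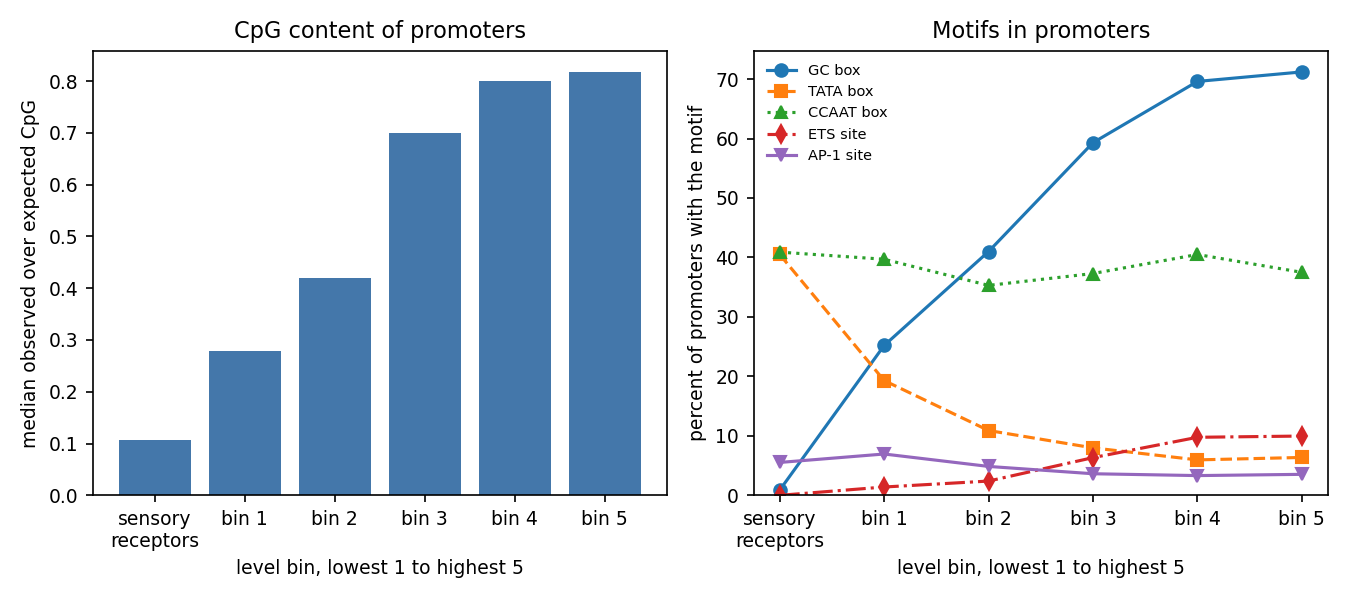
Left, median observed over expected CpG of promoters (y axis, from 0) for sensory receptor genes and for 5 bins of rising level (x axis). Right, percent of promoters with each of 5 motifs in the same bins. CpG content and the GC box rise from the lowest to the highest bin (0.28 to 0.82, and 25.2% to 71.2%), the TATA box falls (19.3% to 6.37%), and the CCAAT box stays between 35.3% and 40.5% in the 5 bins.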

How the data were processed

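Per the labels' protocols, RNA (100 ng a sample) went through linear amplification from random primers and biotin labelling for an Affymetrix array. The deposited values are log2 levels by their range (2.13 to 14.81 in Med and Hi), normalized by the authors per the labels. The submitters' processing notes name Affymetrix Expression Console and GCRMA without role or order. Values identical in both columns were so in the deposited table.

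Probe sets naming 1 gene were averaged per gene (999 genes had several). Symbols were updated by gene number through RefSeq's GRCm38.p6 table (99.6% matched). Probe sets with several (1621) or no gene (12146) named none. Columns were set against each other only by their correlations, identical values and size of difference, and no test was run. The 39 gene lists, 41 symbol families and 9 motifs were written from general knowledge, with earlier results of these data known, and family patterns were corrected and ligand pairs written after levels were seen. Of 1058 listed names, 76 had no probe set of their own and were left out. Named genes are the markers, the 30 highest non-ribosomal genes, up to 12 highest and 8 lowest members of a list, 4 highest of a family, and the neighbours of Cdkn2a. Acta2, Cgas, Col1a1, Csf2, Csf3r, Cxcl12, Erbb3, Erbb4, Gas6, Hoxb1, Ifnb1, Ifngr1, Kit, Lifr, Muc2, Ocln, Pdgfrb, Ptger1, Ptger2, Ptger4, Ret, Slc7a11, Snai2 and Thy1 fall outside this rule and were picked with their values known. The first promoter RefSeq lists per gene was used. Counting and motif search were tested on simulated data. Python 3.11.15, pandas 2.3.3, numpy 2.4.6 and scipy 1.17.1 were used. Alternatives were other background genes and limits, other probe set rules, single columns and quantile scaling.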

Additional observations from a re-analysis of the deposited data

How the results depend on the processing

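The count of genes above the lower limit depended on which genes stood for background. With keratin-associated, beta-defensin and taste receptor genes in place of sensory receptor genes, the limit was 7.70, and 7929 genes, 256 list members and 704 family members exceeded it, where 12667, 556 and 1287 exceeded 6.20. With the highest sensory receptor gene as the limit, the counts were 4369, 155 and 424. Other alternatives kept these counts within 1.5 times. The count of genes above the upper limit stayed between 3896 and 6009, the latter without Olfr1174. The count of other-tissue markers above it was 1 (Cd68) in Med alone and without Olfr1174, and 0 otherwise. Of 117 counts for single lists and families, quantile scaling moved 0 by over 1.5 times, the highest probe set per gene 1, Med alone 4, Hi alone 3 and the keratin-associated, defensin and taste background 59. Of 78 such counts at the lower limit, the 99th percentile moved 38 and the highest sensory receptor gene 68. In the highest of 10 level bins, 70.3% of promoters held a GC box. No paired analysis was possible because each group has 1 column and no test was run. Levels near the lower limit cannot be told from background.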

Other observations

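Of 43 nutrient and drug transporter genes 15 exceeded the upper limit (34.9%, against 23.3% of all other genes) and 10 were at background. The heavy chain Slc3a2 (12.16 in Med and 12.17 in Hi) and its light chain partner Slc7a5 (10.96 and 10.62) were high, as were the glutamine transporter Slc38a2 (11.99 and 12.21), the glucose transporter Slc2a1 (11.74 and 11.43) and the lactate transporter Slc16a1 (11.12 and 10.62). The cystine exchanger Slc7a11, another partner of Slc3a2, was at 6.33 in both columns, and the fructose transporter Slc2a5 at 5.46 and 5.68. The amino acid carriers Slc7a2 and Slc1a1 had means of 5.46 and 5.47, at background. Of the drug efflux pumps, Abcc1 was at 10.81 and 10.52 and Abcg2 at 4.83 and 4.86.

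The genes around the cell cycle inhibitor Cdkn2a were uneven. Mtap, of methionine salvage, was at 10.80 and 10.77, Cdkn2b at 9.33 and 9.44, and Dmrta1 beyond it at 5.28 and 5.18. Cdkn2a itself was at 8.78 in Med, in Hi and also in miR-Ctrl, the same value to the last digit, so this probe set gave no separate reading for any column. Identical values in all 3 columns were found for 2815 probe sets (7.92%).

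Of 8 sex chromosome genes measured, 7 were at background, where 32.4% of all other genes were. Among them were Xist at 4.66 in both columns and the Y-linked Eif2s3y at 3.43 and 3.44, Uty at 3.78 in both and Kdm5d at 4.87 and 4.49. Sry was at 6.93 and 7.05, between the limits. Of 26 listed cancer-testis genes 14 were measured. Of these, 0 exceeded the upper limit (23.3% of all other genes did) and 12 were at background, including Trap1a at 4.51 in both.

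Probe sets that named no single gene also carried signal. Of 12146 with no gene 1618 (13.3%) exceeded the upper limit, and of 1621 with several genes 548 (33.8%) did.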
